A study of Homo sapiens with 14 samples.

Results

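The core cell cycle machinery was examined gene by gene in CHP-134, a human neuroblastoma cell line with amplified MYCN, in 2 RNA-seq experiments. The set holds 46 genes, chosen by symbol from a written list of cyclins, cyclin-dependent kinases (CDKs) and their inhibitors, CDC25 phosphatases, WEE1 kinases, the RB and E2F families, regulators of mitotic transcription, F-box proteins and the anaphase-promoting complex (APC/C). Of these, 45 were found among the 17810 entries of the first experiment, where CCND2 was not analysed, and 46 among the 19143 entries of the second. RBL1 also has a short second entry, which stayed below 1 CPM (counts per 1000000 counts in the library) in every library and was not used.

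In the first experiment, cells engineered by lentivirus to express enhanced green fluorescent protein (EGFP, 3 libraries) or OmoMYC (3 libraries) from a Tet-On vector were given doxycycline at 1 μg/ml for 3 days in both groups. OmoMYC is a mutant of the MYC dimerization domain that interferes with MYC proteins, so the comparison asks which genes depend on N-MYC. The cells with EGFP and those with OmoMYC were engineered apart, so an effect of the transgene and a difference between the resulting lines cannot be told apart. In the second experiment, parental CHP-134 cells, which carry no degradable tag, received 500 nM of the degrader dTAG47 (4 libraries) or dimethyl sulfoxide, DMSO (4 libraries), for 18 h. That comparison asks what the compound does where its tagged target, PDPK1, is not engineered. MYC, from which OmoMYC derives, was counted at 513, 527 and 526 CPM in the OmoMYC libraries and between 0.568 and 0.689 CPM in the EGFP libraries. Libraries held 28060817 to 38358128 counts in the first experiment and 40861430 to 53451641 in the second. Of 10 adrenergic neuroblastoma markers, 8 were at 1 CPM or more in EGFP cells and 8 in DMSO cells, with DBH and TH below it. The summed level of 7 fibroblast markers was 116 to 131 CPM in EGFP and 104 to 118 CPM in OmoMYC libraries, and 3 of them (COL3A1, DCN and LUM) were below 1 CPM in all groups.

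Progress through the cell cycle is driven by CDKs that become active when bound by cyclins. D-type cyclins with CDK4 or CDK6 begin to inactivate RB and its relatives, which releases E2F factors to switch on genes for DNA replication. E-type and A-type cyclins with CDK2 then carry cells through S phase, and B-type cyclins with CDK1 through mitosis, after CDC25 phosphatases have removed the inhibitory phosphates that WEE1 and PKMYT1 place on the kinase. The MuvB complex represses late cell cycle genes when joined to RBL1 or RBL2 and activates them when joined to B-MYB and FOXM1, and it contacts promoters through LIN54 at a motif called the cell cycle genes homology region (CHR). Ubiquitin ligases end each step: SCF complexes with the F-box proteins SKP2 or cyclin F, and the APC/C with CDC20 or FZR1.

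After OmoMYC induction, 22 of 45 members were suppressed and 3 were induced, and 20 were not called. Over all genes tested, 25.7% were suppressed and 27.3% were induced. Suppressed members were the mitotic engine (CDK1, CCNB1, CCNB2), the S phase kinase CDK2 with CCNA2 and CCNE2, the G1 kinase CDK6, the CDK1 regulators CDC25C and WEE1, RBL1 and RBL2, E2F3, E2F5, E2F7, LIN54, SKP2, and 6 genes of the APC/C and its regulators. The induced members were the CDK inhibitors CDKN1B and CDKN2D and the APC/C coactivator FZR1. The median log2 fold change of the 45 members was -0.18, against 0.01 for all genes tested, and 38 members were lower and 7 higher. Most changes were below 2-fold: log2 fold changes ran from -1.03 (CDK1) to 0.43 (FZR1). Calls are adjusted p-values under 0.05 from edgeR's quasi-likelihood test over all 13803 genes tested, and log2 fold changes are OmoMYC over EGFP with standard errors (SE). In cultures of many cells, fewer cells in a cell cycle phase and less RNA per cell cannot be told apart.

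**Figure D1:**
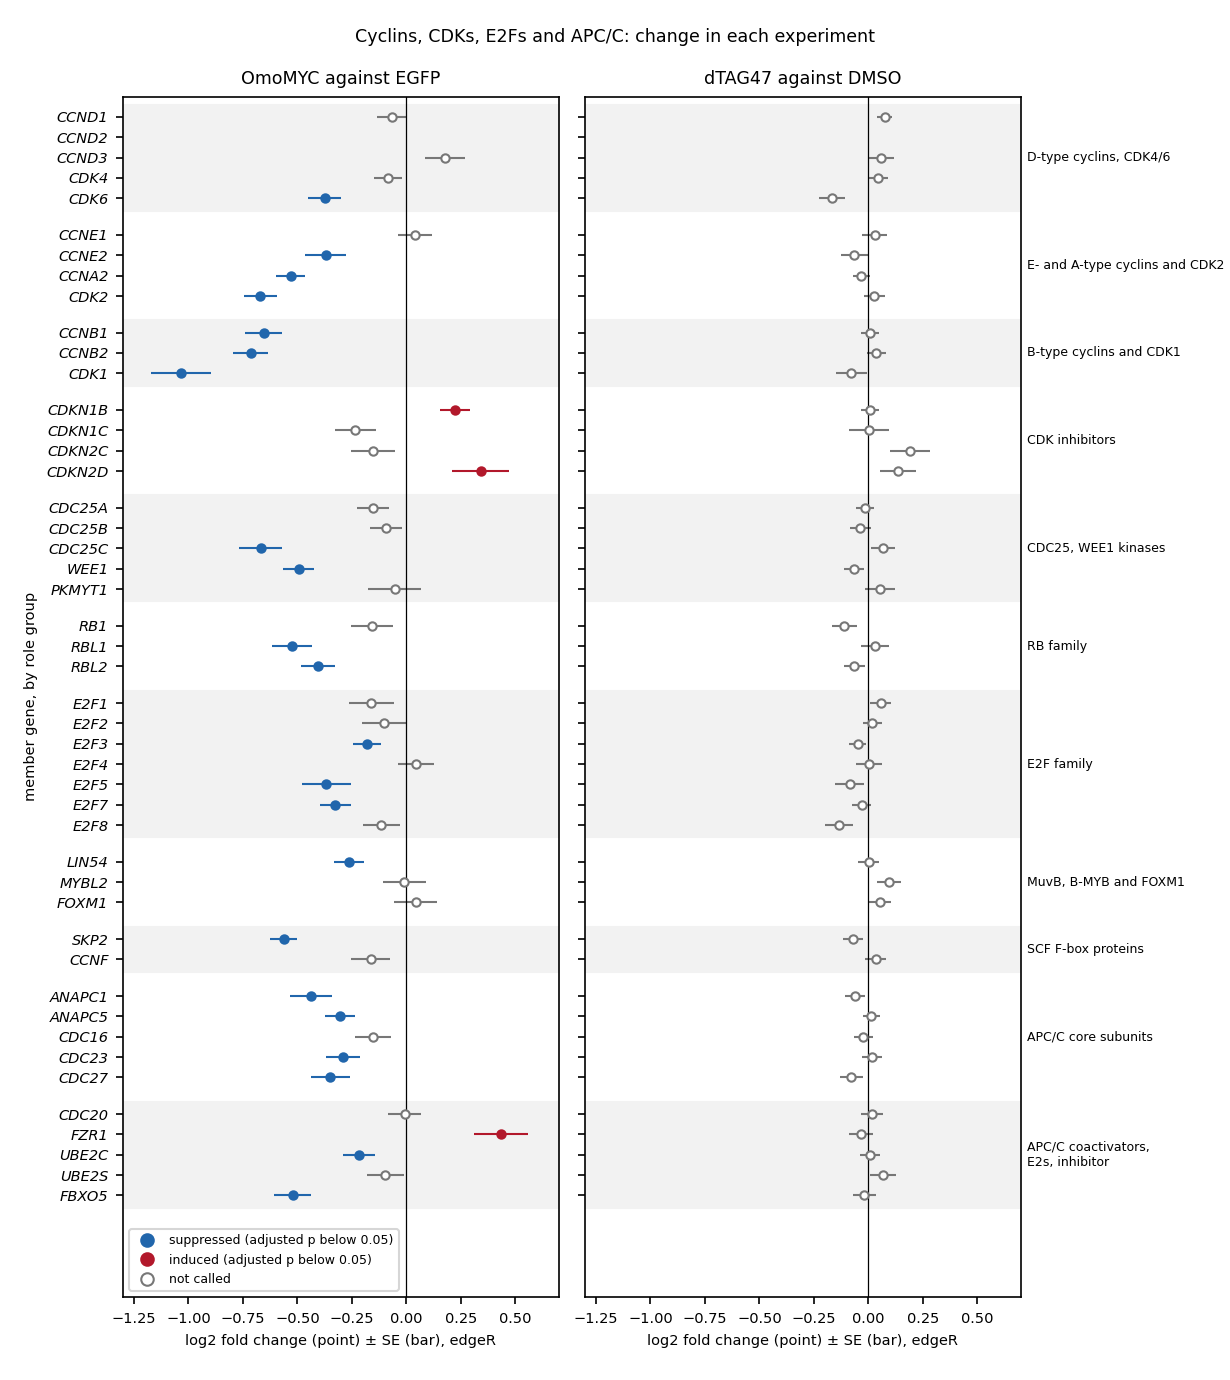
Log2 fold change (point) with its SE (bar) for each member, by role group, in OmoMYC against EGFP (left) and dTAG47 against DMSO (right); filled points passed an adjusted p of 0.05. On the left, 22 members are suppressed and 3 induced, with CDK1 the lowest at -1.03; on the right, no member is called and all points lie between -0.17 and 0.19.

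The 3 EGFP and 3 OmoMYC libraries did not overlap in CPM for 29 of 45 members (64.4%), while 62.3% of all genes tested did not overlap. At an unadjusted p under 0.05, 26 members passed, and 59.2% of all genes did. By both counts the members stood near the whole table, and 22 of their 25 calls were falls.

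**Figure D2:**
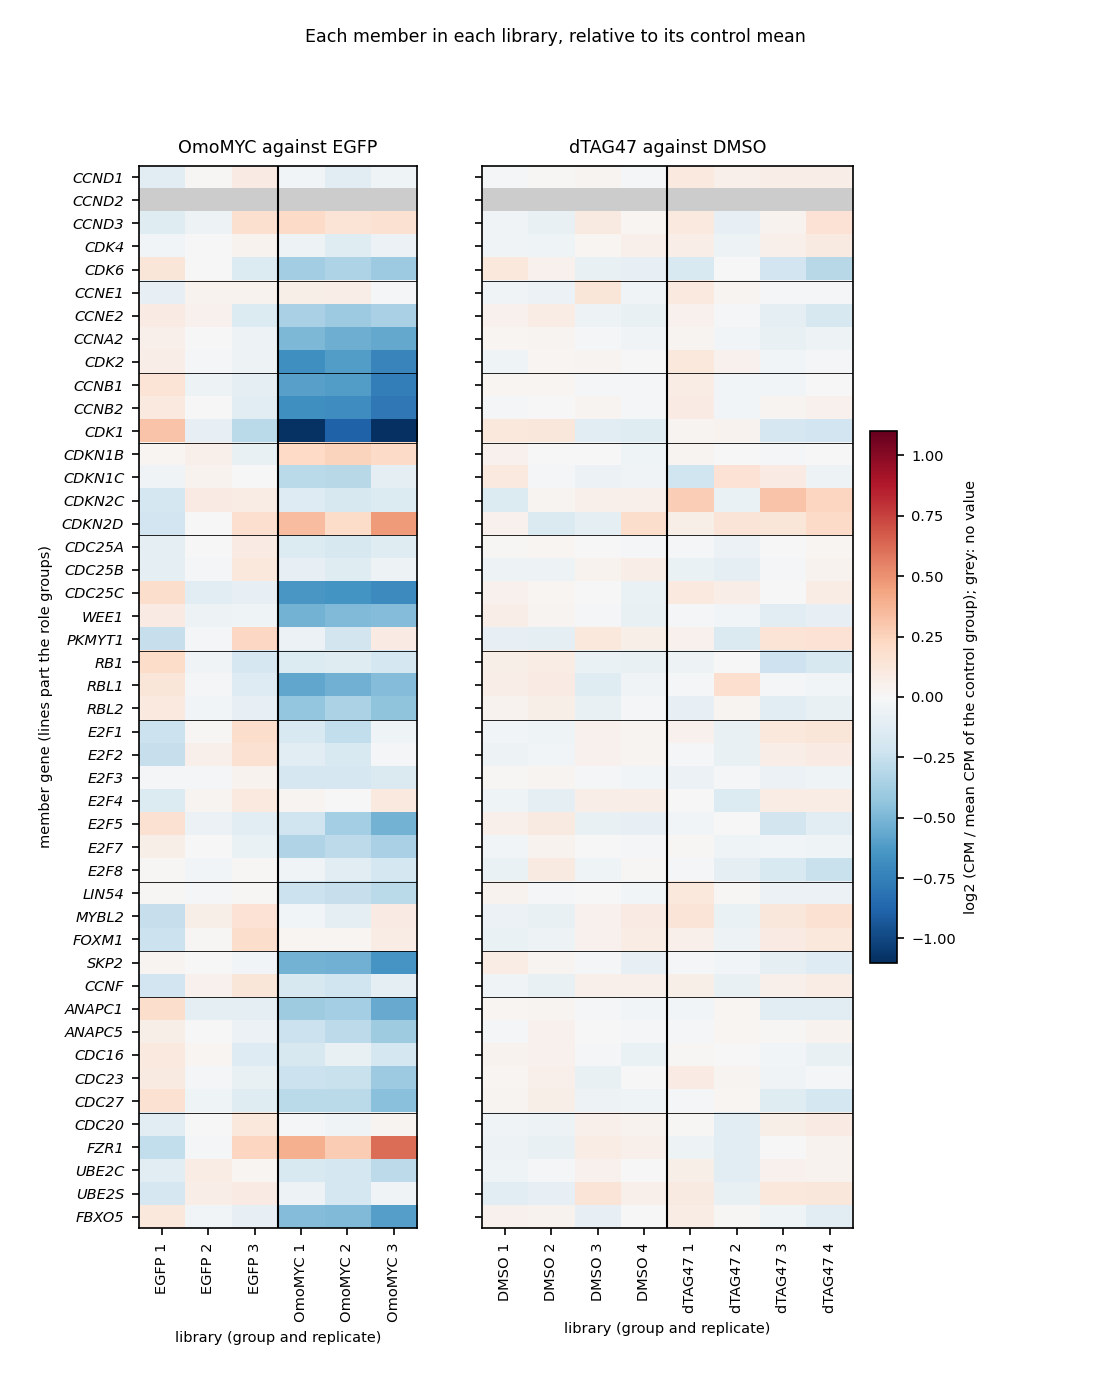
Log2 ratio of each member's CPM to the mean of its control group, in each of the 14 libraries; rows are members in role order and grey marks CCND2, which has no ratio. CDK1, CCNB1, CCNB2, CDK2, CCNA2, CDC25C, WEE1, SKP2 and FBXO5 are lower in all 3 OmoMYC libraries than in all 3 EGFP libraries, and the libraries of the second experiment show no block of this kind.

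Promoter letters were read to show what stands around starts of members that moved and did not. RefSeq promoter windows, 250 bases before to 50 after a gene's start, were found for 35 members (52 windows). Stretches of 140 bases from 110 before to 30 after the start are printed for CDK1, CCNB2 and CDC25C, which were suppressed and hold the CHR letters TTTGAA, for CCNA2, suppressed without those letters in this stretch, and for CDC20, which holds them and was not called as counted. Where a gene had several windows, the stretch with the most marked letters was printed. The other CDK1 window holds TTTGAA only at position -161 from its start, and the other CDC25C window only at position 44. Both positions lie outside the 140 bases that would be printed. Capitals mark TTTGAA and the CCAAT box on either strand (TTCAAA and ATTGG on the other), and positions are hg19. The CDK1 and CDC25C stretches lie inside the gene spans given below, at starts downstream of the outermost annotated start.
CDK1 (chr10:62538126-62538265, plus strand): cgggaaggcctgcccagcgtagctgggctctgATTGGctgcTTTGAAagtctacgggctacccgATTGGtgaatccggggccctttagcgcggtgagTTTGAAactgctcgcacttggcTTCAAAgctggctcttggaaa
CCNB2 (chr15:59397235-59397374, plus strand): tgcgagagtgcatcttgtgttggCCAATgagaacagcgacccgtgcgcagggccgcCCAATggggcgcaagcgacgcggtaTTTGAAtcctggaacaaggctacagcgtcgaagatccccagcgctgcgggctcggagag
CDC25C (chr5:137667464-137667603, minus strand): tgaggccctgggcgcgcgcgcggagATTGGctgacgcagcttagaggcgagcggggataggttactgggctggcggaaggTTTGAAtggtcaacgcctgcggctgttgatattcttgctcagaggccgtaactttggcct
CCNA2 (chr4:122745009-122745148, minus strand): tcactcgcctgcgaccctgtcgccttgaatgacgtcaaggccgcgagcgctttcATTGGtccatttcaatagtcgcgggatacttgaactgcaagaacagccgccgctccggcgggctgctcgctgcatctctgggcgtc
CDC20 (chr1:43824542-43824681, plus strand): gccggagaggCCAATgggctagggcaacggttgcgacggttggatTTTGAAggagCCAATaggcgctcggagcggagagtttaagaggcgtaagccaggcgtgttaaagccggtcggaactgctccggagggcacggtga

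By the calls as counted, the CHR letters TTTGAA stood in the windows of 8 of 17 suppressed genes and of 3 of 18 genes not suppressed, CDC20, CCNF and FZR1. By window the shares were 42.3% (11 of 26) and 11.5% (3 of 26), against 15.2% of the 35116 windows of all genes, and windows of 1 gene can overlap. This split depends on the fit. With the GC content and exon length trend removed (below), CDC20 and CCNF were among 15 newly suppressed members. In that fit LIN54, which holds TTTGAA, lost its call, FZR1 was not called, and the shares were not counted anew. CCAAT was in 51.9% of member windows and 34.6% of all windows, the E-box CACGTG in 15.4% and 7.26%, and any of the E2F letters TTTCCCGC, TTTGGCGC, TTTCGCGC and TTCCCGCC in 21.2% and 5.03%. E2F letters were in the windows of 4 of 17 suppressed genes and 6 of 18 genes not suppressed. These are matches of letters on both strands and not measured binding. Of the CHR, only the forms TTTGAA and TTCGAA were searched, so any other form, in CCNA2 or elsewhere, would be missed.

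The B-type cyclins and CDK1 were the role group with the lowest median log2 fold change, -0.71, and all 3 members were suppressed. CDK1 (ENSG00000170312.11, chromosome 10 from 62538089 to 62554610, hg19), the kinase that drives entry into mitosis, has 3 CHR matches in the stretch printed above, which lies inside this span. CDK1 was counted at 147, 111 and 96.5 CPM in EGFP replicates 1, 2 and 3. In OmoMYC replicates 1, 2 and 3 it was at 55.8, 63.7 and 53.8 CPM. Every OmoMYC library was below every EGFP library, and the log2 fold change was -1.03 (SE 0.14, adjusted p = 0.000168, edgeR), or 0.489-fold. CCNB2 (ENSG00000157456.3, chromosome 15 from 59397325 to 59417244), one of the cyclins that partner CDK1, was at 124, 116 and 106 CPM in EGFP and 72.3, 71.9 and 67.1 CPM in OmoMYC libraries. The groups did not overlap, and the log2 fold change was -0.71 (SE 0.08, adjusted p = 5.08e-05). CCNB1, the main mitotic cyclin, had a log2 fold change of -0.66 (SE 0.08, adjusted p = 0.000123).

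Among the E- and A-type cyclins and CDK2, 3 of 4 were suppressed. CDK2 (ENSG00000123374.6, chromosome 12 from 56360565 to 56366573), the S phase kinase, was at 57.3, 53.5 and 52.1 CPM in EGFP libraries. It was at 34.0, 35.4 and 32.8 CPM in OmoMYC libraries, without overlap, for a log2 fold change of -0.67 (SE 0.08, adjusted p = 5.87e-05). CCNA2, which pairs with CDK2 in S phase and CDK1 in G2, had a log2 fold change of -0.53 and CCNE2 one of -0.37. The paralogue CCNE1 was not called (log2 fold change 0.04). Per kb of exon, CCNE1 made up 73.6% ± 2.48 (SD, n = 3) of the E-type cyclin level in EGFP and 78.7% ± 0.779 (n = 3) in OmoMYC libraries. Antisense exons cover 37.1% of the exon length of CCNE2, with INTS8 the gene that overlaps most. Reads of CCNE2 and of such genes cannot be told apart there without strand.

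Of the D-type cyclins and their kinases, 1 of 4 measured members was suppressed. CDK6 (ENSG00000105810.5, chromosome 7 from 92234235 to 92465887) was at 485, 442 and 399.8 CPM in EGFP and 339, 349.8 and 336 CPM in OmoMYC libraries. The groups did not overlap, and the log2 fold change was -0.37 (SE 0.08, adjusted p = 0.00211). CDK4, which binds the same cyclins, was not called at -0.09, nor were CCND1 at -0.06 and CCND3 at 0.18. Antisense exons, those of TSPAN31 the most, cover 44.2% of the exon length of CDK4, so its counts are uncertain where strand was not used. CCND1 supplied 90.6% ± 0.477 (SD, n = 3) of the D-type cyclin level per kb in EGFP and 89.0% ± 0.210 (n = 3) in OmoMYC libraries, with CCND3 as the remainder. In parental cells CCND2 had 0 counts in all 8 libraries, which allows up to 3 counts, or 0.0732 CPM in the shallowest library.

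Of the 4 CDK inhibitors, 2 were induced and none was suppressed in the fit first described, and these calls depended on the fit. CDKN1B (ENSG00000111276.6, chromosome 12 from 12838432 to 12875303) encodes p27, an inhibitor of cyclin E and cyclin A kinases that SKP2 marks for degradation. Its level was 103, 105 and 95.4 CPM in EGFP and 117, 119.6 and 117 CPM in OmoMYC libraries, so the groups did not overlap. The log2 fold change was 0.22 (SE 0.07, adjusted p = 0.0176). CDKN2D (ENSG00000129355.6, chromosome 19 from 10677136 to 10679735), an inhibitor of CDK4 and CDK6, was at 4.86, 5.59 and 6.37 CPM in EGFP and 7.09, 6.46 and 7.76 CPM in OmoMYC libraries. The nearest libraries, EGFP replicate 3 and OmoMYC replicate 2, lay close together, and the log2 fold change of 0.34 (SE 0.13) passed with an adjusted p of 0.0498. DESeq2 gave CDKN2D an adjusted p of 0.0912, and limma-voom 0.0509. It also lost its call with RLE factors, upper quartile factors and no filter on low counts. Leaving out single libraries also ended these calls: the highest adjusted p was 0.123 for CDKN1B (without OmoMYC replicate 2) and 0.220 for CDKN2D (without OmoMYC replicate 3). Each kept its call in 1 of 6 such fits. CDKN1C and CDKN2C were not called, with log2 fold changes of -0.23 and -0.15. CDKN1C was near the threshold (adjusted p = 0.0567, edgeR). It was suppressed with RLE factors, upper quartile factors and the replicate block, and without EGFP replicate 1, EGFP replicate 3 or OmoMYC replicate 3. CDKN2C was suppressed without EGFP replicate 1. Both were suppressed with the GC content and exon length trend removed.

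The phosphatases and kinases that set the phosphorylation of CDK1 were split in the fit first described. CDC25C (ENSG00000158402.14, chromosome 5 from 137620958 to 137674044), which activates CDK1 at mitotic entry, was at 32.4, 26.1 and 26.7 CPM in EGFP and 18.2, 18.0 and 17.5 CPM in OmoMYC libraries. All OmoMYC libraries were lower, and the log2 fold change was -0.67 (SE 0.10, adjusted p = 0.000315). WEE1 (ENSG00000166483.6, chromosome 11 from 9595217 to 9615004), which opposes CDC25C, was at 89.1, 80.3 and 81.0 CPM in EGFP and 58.1, 59.7 and 59.9 CPM in OmoMYC libraries. It was also lower in every OmoMYC library, with a log2 fold change of -0.49 (SE 0.07, adjusted p = 0.000294). CDC25A, CDC25B and PKMYT1 were not called, with log2 fold changes of -0.15, -0.09 and -0.05. The split depended on the fit. With the GC content and exon length trend removed (below), CDC25A (-0.21), CDC25B (-0.38) and PKMYT1 (-0.44) were suppressed, as were CDC25C (-0.58) and WEE1 (-0.34). CDC25A and CDC25B were also suppressed without EGFP replicate 1. The counts of PKMYT1 are uncertain where strand was not used, as antisense exons, those of PAQR4 the most, cover 31.9% of its exon length. The share of CDC25C in the CDC25 level per kb was 13.5% ± 2.22 (SD, n = 3) in EGFP and 9.58% ± 0.350 (n = 3) in OmoMYC libraries. These shares were taken as counted, without removal of that trend.

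In the RB family, both pocket proteins that join the MuvB complex were suppressed and RB1 was not called. RBL1 (ENSG00000080839.7, chromosome 20 from 35624752 to 35724400), which encodes p107, was at 27.9, 25.2 and 23.0 CPM in EGFP and 17.1, 17.6 and 18.2 CPM in OmoMYC libraries. The groups were apart, and the log2 fold change was -0.52 (SE 0.09, adjusted p = 0.000937). RBL2, which encodes p130, had a log2 fold change of -0.41 and RB1 one of -0.16 (adjusted p = 0.186). RB1 was suppressed without EGFP replicate 3 (adjusted p = 0.0116, edgeR). It was induced with the GC content and exon length trend removed (0.18, adjusted p = 0.00137, edgeR).

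The E2F family had 3 suppressed members of 7, none induced. E2F5 (ENSG00000133740.6, chromosome 8 from 86089389 to 86129387), a repressor that binds pocket proteins, was at 18.2, 15.5 and 14.8 CPM in EGFP and 13.9, 12.5 and 11.2 CPM in OmoMYC libraries. The groups did not overlap, and the log2 fold change was -0.37 (SE 0.11, adjusted p = 0.0195). E2F7 (ENSG00000165891.11, chromosome 12 from 77415028 to 77459349), a repressor that acts without a pocket protein, was at 59.0, 56.8 and 53.9 CPM in EGFP and 44.9, 46.2 and 44.2 CPM in OmoMYC libraries. It was lower in each OmoMYC library, with a log2 fold change of -0.33 (SE 0.07, adjusted p = 0.00354). Of the activators, E2F3 was suppressed at -0.18 (adjusted p = 0.0376), while E2F1 (-0.16) and E2F2 (-0.10) were not called in the fit first described. Without EGFP replicate 1, E2F1 and E2F2 were suppressed too (adjusted p = 0.00191 and 0.00432, edgeR). With the GC content and exon length trend removed (below), E2F1 (-0.44), E2F2 (-0.37) and E2F3 (-0.13) were all suppressed. E2F3 lost its call in 4 of the 6 fits that left out 1 library (without EGFP replicate 2 and without each OmoMYC library in turn), with an adjusted p of up to 0.133, and also with library size only and with no filter on low counts. E2F5 lost its call without OmoMYC replicate 3 (adjusted p = 0.0619). E2F1 was the activator with the highest level per kb, at 62.2% ± 1.13 (SD, n = 3) of the 3 in EGFP and 61.7% ± 0.901 (n = 3) in OmoMYC libraries. E2F4 and E2F8, both repressors, were not called (log2 fold changes of 0.05 and -0.11).

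Among the regulators of late cell cycle transcription, LIN54 (ENSG00000189308.6, chromosome 4 from 83831126 to 83934079), the subunit that reads the CHR, was at 49.4, 48.4 and 49.4 CPM in EGFP libraries. It was at 41.7, 41.1 and 40.0 CPM in OmoMYC libraries, all lower, for a log2 fold change of -0.26 (SE 0.07, adjusted p = 0.00919). MYBL2, which encodes B-MYB, and FOXM1 were not called, with log2 fold changes of -0.01 and 0.04. MYBL2 had the highest level of any member per kb of exon, at 214 ± 31.2 CPM per kb (SD, n = 3) in EGFP and 212 ± 14.1 CPM per kb (n = 3) in OmoMYC libraries.

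Of the 2 F-box proteins, SKP2 (ENSG00000145604.11, chromosome 5 from 36152091 to 36196951), whose SCF complex degrades p27, was at 353, 346 and 339.7 CPM in EGFP libraries. It was at 241, 241 and 221 CPM in OmoMYC libraries, and the log2 fold change was -0.56 (SE 0.06, adjusted p = 5.72e-05). All 3 OmoMYC libraries were below the EGFP libraries. CCNF, which encodes cyclin F, was not called (-0.16).

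Of the 5 core APC/C subunits measured here, 4 were suppressed in the fit first described. ANAPC1 (ENSG00000153107.7, chromosome 2 from 112369216 to 112642267), the largest scaffold subunit, was at 125, 102 and 101 CPM in EGFP and 83.3, 84.1 and 74.4 CPM in OmoMYC libraries. The groups did not overlap, and the log2 fold change was -0.44 (SE 0.09, adjusted p = 0.0032). The annotation holds 6 pseudogenes named for ANAPC1 and 2 for CDC27, so their counts are less certain. CDC27 (-0.35), ANAPC5 (-0.30) and CDC23 (-0.29) were also suppressed, and CDC16, another repeat-containing subunit, was not called (-0.15). With the GC content and exon length trend removed (below), ANAPC1 and ANAPC5 stayed suppressed, and CDC27 (-0.035) and CDC23 (0.025) were not called. CDC16 was induced in that fit (0.11) and suppressed without EGFP replicate 3.

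The proteins that work with the APC/C moved in both directions. FBXO5 (ENSG00000112029.5, chromosome 6 from 153291654 to 153304714) encodes EMI1, which holds the APC/C inactive through S phase. Its level was 46.8, 42.3 and 40.6 CPM in EGFP and 31.1, 30.8 and 28.4 CPM in OmoMYC libraries, lower in each, for a log2 fold change of -0.52 (SE 0.08, adjusted p = 0.000536). FZR1 (ENSG00000105325.9, chromosome 19 from 3506309 to 3538332), the coactivator of late mitosis and G1, was at 42.6, 51.0 and 60.4 CPM in EGFP and 67.3, 62.5 and 78.4 CPM in OmoMYC libraries. The highest EGFP library was just below the lowest OmoMYC library, and the log2 fold change was 0.43 (SE 0.13, adjusted p = 0.0143). FZR1 lost its call without EGFP replicate 2 (adjusted p = 0.0584) and without OmoMYC replicate 3 (adjusted p = 0.101). CDC20, the coactivator of early mitosis, was not called (-0.01), with CHR letters in the stretch printed above. UBE2C, which starts ubiquitin chains on APC/C substrates, was suppressed at -0.22 (adjusted p = 0.0275), and the annotation holds 5 pseudogenes named for it. It lost its call in 3 of the 6 fits that left out 1 library, without EGFP replicate 2 (adjusted p = 0.0864), OmoMYC replicate 1 (0.0608) and OmoMYC replicate 3 (0.0733). UBE2S, which lengthens those chains, was not called (-0.10), and other annotation on the same strand overlaps 24.1% of its exon length.

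Other genes of the same pathway, listed by role, were read from the same fit. Of 41 tested, 24 were suppressed (58.5%) and 2 induced (4.88%), where 25.7% of all genes were suppressed and 27.3% induced. The alternative fits, among them that with the GC content and exon length trend removed (below), were read for members only. How far the calls of these other genes depend on the fit was therefore not tested. Among other cyclins, CDKs and inhibitors, 9 of 15 were suppressed, and CKS2, a small adaptor that binds CDKs, had the largest change: 65.5, 54.6 and 46.8 CPM in EGFP against 24.8, 25.6 and 20.1 CPM in OmoMYC libraries (log2 fold change -1.24, SE 0.13, adjusted p = 3.81e-05). CDKN1A, which encodes the inhibitor p21, was among the suppressed (-0.34, adjusted p = 0.00587). Of 8 other E2F partners and MuvB subunits, 6 were suppressed, with LIN9, a MuvB core subunit, at -0.75 (SE 0.11, adjusted p = 0.000238). Of 6 other SCF genes, 2 were suppressed, and RBX1, the RING subunit, was at -0.61 (SE 0.18, adjusted p = 0.0143). Of 12 other APC/C genes, 7 were suppressed and 2 induced. FBXO43, an APC/C inhibitor known from meiosis, was at 0.172 to 0.322 CPM in EGFP and 0.545 to 0.691 CPM in OmoMYC libraries (log2 fold change 1.38, SE 0.34, adjusted p = 0.00657), and ANAPC2, a catalytic core subunit, was at 0.39 (adjusted p = 0.0286).

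Levels between genes are compared per exon length. In EGFP libraries, UBE2C followed MYBL2 at 164 ± 11.6 CPM per kb (SD, n = 3). UBE2S, E2F1, CCNB1, CDC20 and CCND1 came next, at 90.6 to 74.5 CPM per kb, and each overlapped its neighbour in this order. E2F5 was lowest at 2.69 CPM per kb, and CDKN2D, E2F8, CCNE2 and RBL1 were between 3.72 and 4.26 CPM per kb with overlapping ranges. Exon length here is that of all annotated exons of a gene together, so a gene with long unused exons appears lower.

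**Figure D3:**
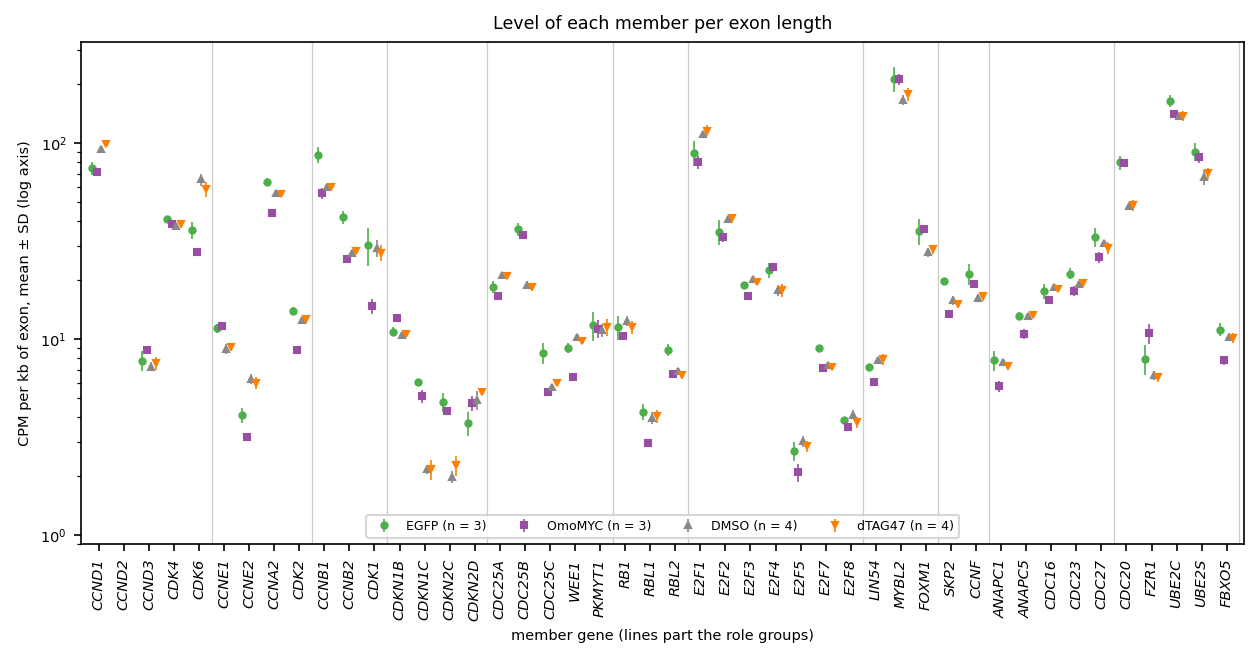
Mean level of each member in CPM per kb of exon with its SD (log axis), in EGFP and OmoMYC (n = 3 each) and DMSO and dTAG47 (n = 4 each) libraries. MYBL2 and UBE2C are highest in all 4 groups, and the OmoMYC mean of CDK1 (14.8) lies below its EGFP (30.3) and DMSO (29.2) means; the 2 experiments were scaled apart and differ in engineering and medium.

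Counts in the first experiment moved with the GC content of the exons. Over all genes tested, the median log2 fold change was -0.28 in the 20% of genes with the lowest GC content and 0.33 in the 20% with the highest. Suppressed members had a median GC content of 42.0% (range 34.9% to 53.5%), and members not called had 56.7% (36.9% to 67.3%). When genes were parted into 5 equal bins of GC content, 18 of 21 members in the 2 lowest bins were suppressed, and 1 of 19 in the 2 highest. EGFP replicate 1 had the strongest trend: the median log2 ratio of the highest bin minus that of the lowest was -0.66 there, -0.26 and 0.01 in EGFP replicates 2 and 3, and 0.19 to 0.46 in OmoMYC libraries. Its share of mitochondrial reads, 2.54%, was also the lowest, against 3.33% and 3.36% in the other EGFP libraries and 4.15% to 4.53% in OmoMYC libraries. Without EGFP replicate 1, 31 members were suppressed, with 27.8% of all genes, and 2 were induced. Those newly called as suppressed there were CCND1, CDKN1C, CDKN2C, CDC25A, CDC25B, E2F1, E2F2, CCNF and UBE2S.

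When a smooth trend on GC content and exon length was removed from each library, 32 members were suppressed and 3 induced. In that fit 29.6% of all genes were suppressed and 30.0% induced, and the median log2 fold change of the members was -0.21. Of the 22 members first called as suppressed, 17 were called again, and CCNE2, E2F5, LIN54, CDC23 and CDC27 were not. Another 15 were newly called as suppressed, among them E2F1 (-0.44, SE 0.04), CCNF (-0.47, SE 0.04), PKMYT1 (-0.44, SE 0.05), CDKN1C (-0.56, SE 0.09), CDC25B (-0.38), E2F2 (-0.37), MYBL2 (-0.27), CCND1 (-0.20) and CDC20 (-0.19). CDK1 moved from -1.03 to -0.57 (SE 0.05), and CDK2 stayed at -0.67. CDKN1B was induced at 0.41 (SE 0.04, adjusted p = 5.68e-08), FZR1 (0.02, adjusted p = 0.787) and CDKN2D (0.09, adjusted p = 0.458) were not called, and RB1 (0.18) and CDC16 (0.11) were called as induced. A removed trend takes with it any change in the cells that follows GC content, and the part of either in these counts was not tested.

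**Figure D4:**
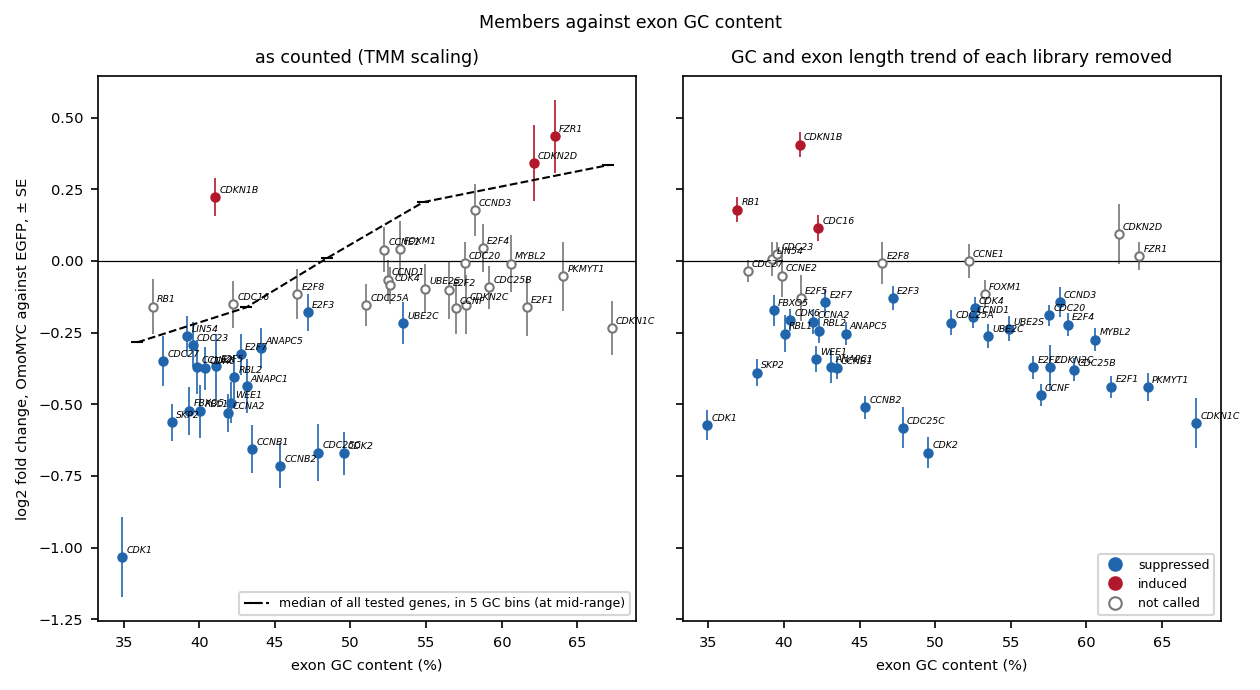
Log2 fold change of each member with its SE against the GC content of its exons (%), as counted (left) and after removal of the GC content and exon length trend of each library (right); the dashed line joins the medians of all tested genes in 5 bins of GC content. On the left, suppressed members lie mostly below 50% GC; on the right, 32 members over the whole GC range are suppressed and CDKN1B, RB1 and CDC16 are induced.

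There were 15 members suppressed in the fit first described and under every alternative tried, each left-out library included: CDK6, CCNA2, CDK2, CCNB1, CCNB2, CDK1, CDC25C, WEE1, RBL1, RBL2, E2F7, SKP2, ANAPC1, ANAPC5 and FBXO5. ANAPC5 had the smallest fall among them, at -0.30. No induced member kept its call in all of these fits.

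In parental cells treated with dTAG47, no member was called in either direction among 45 tested in the fit without a block. Over all 14470 genes tested, 0.0415% were suppressed and 0.117% induced. DESeq2 and limma-voom also called 0 members. With the replicate number as a block, CDK6 (-0.17, adjusted p = 0.0067) and RB1 (-0.11, adjusted p = 0.0400) were called as suppressed, 4.44% of members, where 2.50% of all genes were suppressed and 4.62% called in either direction. With replicates 1 and 2 against 3 and 4 as a factor the same pair was called (adjusted p = 0.00406 and 0.0296), and 2.90% of all genes were suppressed and 5.49% called in either direction. The members' share was near that of the whole table in both fits. The members' median log2 fold change was 0.01, and their values ran from -0.17 (CDK6) to 0.19 (CDKN2C). At an unadjusted p under 0.05 there were 3 members, 6.67% of those tested, while 7.28% of all genes passed. The groups did not overlap for 1 member, CCND1, and 3.34% of all genes did not overlap.

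The 3 members with the smallest p-values were CDK6, CCND1 and E2F8, each with an adjusted p of 0.673 (edgeR). CDK6 was at 867, 829.8, 756 and 750.0 CPM in DMSO replicates 1 to 4 and 713, 802, 691 and 647 CPM in dTAG47 replicates 1 to 4. The groups overlapped through dTAG47 replicate 2, and the log2 fold change was -0.17 (SE 0.06). CCND1 was at 441, 449.7, 455 and 440.1 CPM in DMSO and 480.3, 463, 471 and 469 CPM in dTAG47 libraries, so every dTAG47 library was higher, by a log2 fold change of 0.08 (SE 0.03). E2F8 was at 16.2, 18.3, 16.5 and 17.2 CPM in DMSO and 16.8, 15.8, 15.2 and 14.4 CPM in dTAG47 libraries. Only dTAG47 replicate 1 reached the DMSO range, and the log2 fold change was -0.14 (SE 0.06).

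CDK6 was the member whose call depended most on the fit in parental cells. Without dTAG47 replicate 2 its log2 fold change was -0.23 (adjusted p = 0.0427), and that was the only member called, while 0.221% of all genes were suppressed and 0.579% called in either direction. With replicates 1 and 2 alone CDK6 was at -0.15 (adjusted p = 0.676), and with replicates 3 and 4 alone at -0.17 (adjusted p = 7.9e-06). In replicates 3 and 4 alone, 3 members were called, the others being RB1 (-0.12, adjusted p = 0.0474) and CDC27 (-0.12, adjusted p = 0.0161). They are 6.67% of members, near the 6.17% of all genes called in either direction in that fit, of which the suppressed were 3.24% of all genes. After removal of the GC content and exon length trend, CDK6 was at -0.11 (adjusted p = 0.0845), RB1 at -0.01 and CDC27 at 0.01, and no member was called. A difference between libraries of replicates 1 and 2 and those of replicates 3 and 4 is not described in the labels.

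Side by side, the members with the largest falls after OmoMYC had small values in parental cells. CDK1 was at -1.03 (SE 0.14) and -0.08 (SE 0.07), CCNB2 at -0.71 (SE 0.08) and 0.04 (SE 0.04), and CDK2 at -0.67 (SE 0.08) and 0.03 (SE 0.05). CDK6 was lower in both experiments, at -0.37 (SE 0.08) and -0.17 (SE 0.06). The 2 experiments share no samples and were fitted apart, and the difference between their fold changes was not tested.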

How the data were processed

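RNA was rRNA-depleted and sequenced from 14 CHP-134 libraries, described in the study's methods as biological replicates. Per the labels, the authors aligned reads to hg19 with STAR and counted them with featureCounts; DESeq2 is named too. The annotation, the strand setting and the handling of reads mapping to several places are not given in the sources used here. The deposited tables hold raw counts per gene for each library, not normalized, and all count columns were used (0 left unmapped). The study's DESeq2 comparisons were not used.

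Each table was fitted apart in R 4.3.3 with edgeR 4.0.16: filterByExpr, TMM factors, the robust quasi-likelihood test without covariates, and Benjamini-Hochberg adjustment over all genes tested at an FDR of 0.05. CPM use each library's counts over the genes that passed filterByExpr, multiplied by its TMM factor (0.988 to 1.01). For MYC and for the limit at 0 counts, full library totals (28060817 to 53451641 counts) took their place. DESeq2 1.42.0, limma 3.58.1 (voom), other scaling factors and filters, a replicate block and left-out libraries were alternatives. The fit with a GC content and exon length trend (splines with 4 degrees of freedom) removed through offsets, and the fits of parental replicates 1 and 2 or 3 and 4 alone, were added after seeing the data. Coordinates, exon lengths and GC content come from the lifted GRCh37 version of GENCODE release 44, which shares its sequence with hg19 and held 16960 identifiers of the first table and 18616 of the second. Promoter windows come from RefSeq (GRCh38.p14 table) and were placed in hg19 by exact match. The procedure was tested on simulated data. Of 200 genes altered in the design of OmoMYC against EGFP (13803 genes), 158 were found by edgeR with 5.95% false calls, namely 65 of 98 at a log2 fold change of 0.5 and 93 of 102 at 1. In the design of dTAG47 against DMSO (14470 genes) it was 178, with 5.32% false calls. In the data after OmoMYC, 25.7% of the 13803 genes were called as suppressed and 27.3% as induced, far more than the 200 altered here. The share of false calls with so many changes, or with the GC content trend described above, was not tested. Symbols with several entries were read from the entry with the highest level.

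Members and lists were chosen with earlier results of these data known. Values in every library are given, in each role group of OmoMYC against EGFP, for the called member with the largest change, the one with the smallest adjusted p, and members called against the main direction, and in dTAG47 against DMSO for the 3 members with the smallest p. In each pathway list the called gene with the largest change is named. CDKN1A, ANAPC2 and the other members are named outside this rule, after their values were seen. Intervals at 0 counts (up to 3 counts) cover counting error only.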

Additional observations from a re-analysis of the deposited data

Results flagged for a closer look

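In groups of 4 libraries, a library stood far from the other 3 (Dixon's test at 95%) in 6 of 90 groups of member CPM in the parental experiment, and chance flags about 1 in 20. Of these, 4 were in dTAG47 replicate 2: RBL1 was high there at 26.8 CPM (others 23.2 to 23.4), and CCNF was low at 96.9 CPM (others 107 to 108). UBE2C was low at 163 CPM (others 182 to 185), as was UBE2S at 178 CPM (others 202 to 206). In DMSO libraries, CCNE1 was high in replicate 3 at 24.0 CPM (others 21.1 to 21.4), and CDKN2C was low in replicate 1 at 5.40 CPM (others 6.10 to 6.23). In dTAG47 replicate 2 the median log2 ratio of the 20% of genes highest in GC content minus that of the 20% lowest was -0.16, against -0.02 to 0.25 in the other dTAG47 libraries, and its part in these values was not tested.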

How the results depend on the processing

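With 3 libraries a group, calls near the threshold depend on single libraries. As 1 library was left out, suppressed members after OmoMYC ranged from 20 to 31, induced members from 0 to 3 and the members' median log2 fold change from -0.27 to -0.17. In parental cells suppressed members ranged from 0 to 1. The median after OmoMYC was -0.20 with DESeq2 and with upper quartile factors and -0.21 with the GC content and exon length trend removed. In that fit CCND3 (-0.14), RB1 (0.18), E2F4 (-0.22), CDC16 (0.11), LIN54 (0.0082) and CDC23 (0.025) changed sign, and the cause was not tested. CCND3, RB1, E2F4 and CDC16 gained a call there, while LIN54 and CDC23 lost theirs. Over 675 member values under alternatives after OmoMYC, 607 kept their direction and side of the threshold or were called in neither fit, 32 lost their call, 30 gained one and 6 reversed. In parental cells 892 of 900 did so and 8 gained a call. With replicates 3 and 4 only, 3 members were suppressed there (3.24% of all genes).

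Same-numbered libraries did not deviate together in every pair after OmoMYC (correlations of -0.07 to 0.29), and differently numbered ones ran from -0.29 to 0.25. In parental cells their correlations were 0.01 to 0.16, and those of differently numbered libraries ran from -0.23 to 0.25. The numbers were not taken as pairs in the fits first described. In parental cells the block lowered the variation between replicates (biological coefficient of variation) from 0.056 to 0.033, so the fit without it leaves that variation in. After OmoMYC this coefficient went from 0.084 to 0.069 with the block. With the replicate block, 23 members were suppressed and 3 induced after OmoMYC, with a median of -0.18. In parental cells the replicate block called 2 members as suppressed, CDK6 and RB1, where 2.50% of all genes were suppressed, and replicates 1 and 2 against 3 and 4 as a factor also called 2 (2.90% of all genes), with a median of 0.01 in both fits.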
